A study of Drosophila melanogaster with 9 samples.

Results

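The comparison of ph+E(z)+CtBP RNAi with control RNAi in Drosophila Kc167 cells rests on 6 of the 9 RNA sequencing libraries of the series, 3 in each group. It covers the 8622 of 14797 listed genes that reached at least 0.5 FPKM (fragments per kilobase of transcript, scaled to mapped fragments) in 3 or more of these 6 libraries. Kc167 is an embryonic fly cell line with features of hemocytes, the blood cells of the fly. Each culture received 15 µg of dsRNA, which was aimed at ph, E(z) and CtBP together in one group and is named only as control in the other, and was harvested on day 7. The labels give neither the target of the control dsRNA nor the share of each dsRNA in the mixture. The group with ph, E(z) and CtBP dsRNA is called the 3-target group below, and the 3 libraries with ph+E(z) RNAi are used only to show where its values differ from those without CtBP RNAi.

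Polycomb repressive complex 1, which contains Polyhomeotic (encoded by ph-p and its tandem copy ph-d), and Polycomb repressive complex 2, in which E(z) methylates histone H3 on lysine 27, keep developmental genes such as the HOX genes silent. CtBP is a corepressor that binds DNA-bound factors and recruits enzymes that modify chromatin, and in some contexts it is needed for activation. Hemocyte-like cells are known for secreting collagen IV and other basement membrane proteins and for receptors that recognise microbes and dying cells.

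The FPKM of a library added up to 725406 to 908290. The sources used here do not give read numbers, so the depth is unknown. The library labelled control replicate 1, called control library 1 below only after its label, stood apart from the other 2 control libraries. Of its summed FPKM, 40.8% lay in ribosomal protein genes, against 31.5% and 31.6% in control libraries 2 and 3 and 27.1% to 29.5% in the 3-target group. It held the lowest of the 6 values for 3037 genes and the highest for 3228. Hml, a plasmatocyte marker, lay there at 8.06 FPKM against 173 and 164 in control libraries 2 and 3, and the phagocytic receptor gene eater at 0.0991 against 7.6 and 6.93. The total and list counts of calls against control are therefore given below with and without that library. Changes of single genes use all libraries unless stated, and values without that library are added for some genes that it shifted. Of the other hemocyte genes, srp, a GATA factor that sets blood cell fate, lay between 77.7 and 165 FPKM in the control group and between 176 and 194 in the 3-target group.

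The knockdown was read in the targets themselves. E(z) lay at 43.4, 37.4 and 31.2 FPKM under control RNAi and at 9.85, 8.93 and 9.68 in the 3-target group. It fell by 1.91 ± 0.18 (SE) on the log2 scale (adjusted p = 0.00074). CtBP lay at 189, 202 and 205 FPKM under control RNAi and at 49.0, 41.8 and 65.8 in the 3-target group, and fell by 1.94 ± 0.16 (adjusted p = 0.000407). For both genes the groups did not overlap, as in 36.8% of all tested genes, and leaving out any 1 of the 9 libraries kept the call. ph-p lay at 7.22, 7.25 and 10.3 FPKM in the 3-target group, between the 4.64 of the library labelled control replicate 1 and the 18.9 and 18.1 of control libraries 2 and 3. Its change was -0.51 ± 0.46 with all libraries (adjusted p = 0.476) and -1.13 without control library 1 (adjusted p = 0.0038), so that library went against its label in ph-p and with it in E(z). ph-d, at 3.81, 3.73 and 4.99 FPKM, differed by 0.26 ± 0.42 (adjusted p = 0.701), and by -0.32 without that control library (adjusted p = 0.232). Reads of this near-identical pair may be split between the copies.

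Across the 8622 genes, 496 were higher and 372 lower with all 3 targets, which is 5.75% and 4.31% of the genes tested. Of these, 314 higher and 180 lower genes changed at least 2-fold, and the 2-fold counts without control library 1 were 315 and 213. In 867 of the 868 called genes the 3 libraries of one group lay wholly on one side of the other, and this held for 36.8% of all tested genes. Without control library 1, 870 genes were higher and 712 lower, 10.1% and 8.26% of those tested. List counts given below without that library stand beside these larger shares. Of the genes called with all libraries, 480 of the 496 higher and 358 of the 372 lower were called in the same direction without it, and 0 turned in sign. The higher genes made up 33.3% of the 216 tested genes whose mean in control libraries 2 and 3 was under 0.5 FPKM, and 2.47% of the 809 genes in the highest of the level classes compared. Genes under 0.5 FPKM in all 3 control libraries, 94 in number, could pass the filter only through the 3-target group. Leaving out 3-target library 1 left 187 higher and 126 lower genes, and leaving out 3-target library 2 left 202 and 141. The lower genes also numbered 239 and 214 without control libraries 2 and 3, and 224 and 243 without ph+E(z) libraries 2 and 3. In all, 181 higher and 110 lower genes were called in each of the 9 fits that left out 1 library. A fit of the 6 compared libraries without the ph+E(z) libraries, called the 6-library fit below, gave 251 higher and 156 lower genes, and 36 calls of named genes did not pass in it.

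**Figure D1:**
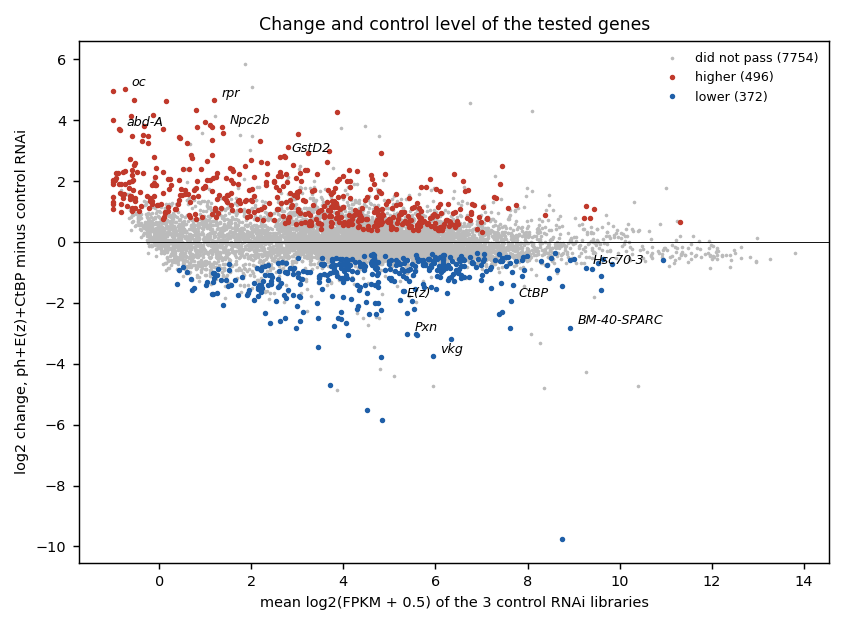
Log2 change of each of the 8622 tested genes (ph+E(z)+CtBP minus control RNAi, y axis) against its mean log2(FPKM + 0.5) in the 3 control RNAi libraries (x axis). Red points are the 496 higher and blue points the 372 lower genes at an adjusted p under 0.05, and higher genes are most frequent at the low end of the control level.

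**Figure D2:**
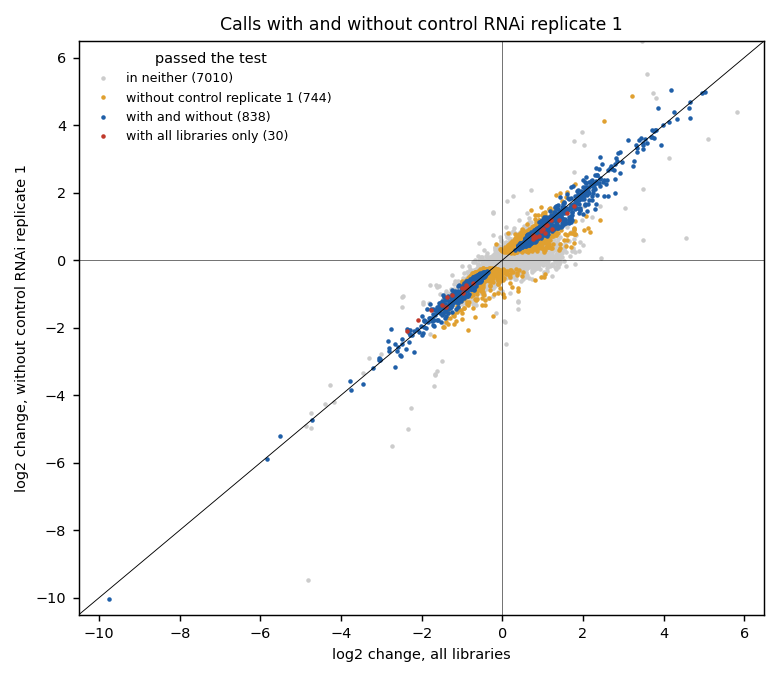
Log2 change of each tested gene with all libraries (x axis) and without control RNAi library 1 (y axis), coloured by where the gene passed the test, with the line of equal values. The 838 genes called both ways lie near the line, and 744 genes passed only without that library.

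The HOX genes, which set segment identity along the body axis, were above control in the 3-target group, and 3 of them below their level with ph+E(z) RNAi alone. abd-A (FBgn0000014, chromosome 3R, 16807214 to 16830049 in dm6) lay at 0.0275, 0.135 and 0 FPKM under control RNAi and at 7.72, 7.94 and 4.74 in the 3-target group. It rose by 3.69 ± 0.36 (adjusted p = 0.000939). Abd-B (FBgn0000015, 3R, 16927212 to 16972236) went from 0, 0.0825 and 0.0356 FPKM to 2.2, 2.08 and 1.95, a rise of 2.26 ± 0.31 (adjusted p = 0.00396). These are the abdominal genes of the bithorax complex, and both calls held without any 1 library. Antp (FBgn0260642, 3R, 6896253 to 6999228), a thoracic gene, went from 0.0326, 0 and 0.033 FPKM to 2.19, 2.08 and 1.15, a rise of 2.11 ± 0.39 (adjusted p = 0.0134). Ubx (FBgn0003944, 3R, 16656623 to 16734426) went from 0.0684, 0.0244 and 0.0493 FPKM to 2.26, 1.97 and 0.758, a rise of 1.90 ± 0.38 (adjusted p = 0.0182). Each of these 4 genes was under 0.5 FPKM in every control library. The filter alone thus placed every 3-target library above every control library, and this is no separate support. In each, 3-target library 3 was the lowest of its group. The head gene Dfd (FBgn0000439, 3R, 6791836 to 6802428) differed from them in being present in control cells. It lay there at 2.77, 5.92 and 5.77 FPKM and reached 35.7, 34.6 and 21.5, a rise of 2.58 ± 0.29 (adjusted p = 0.00167). Without control library 1 the Dfd rise was 2.26.

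All 5 tested HOX genes were thus higher with and without control library 1, where 5.75% of all genes were, with a median log2 change of 2.26 beside -0.01 over all tested genes. The 4 genes other than Dfd were under 0.5 FPKM in every control library and could not have fallen, so this count and median are no separate support. lab, pb and Scr were too low to test. The highest of their 3-target values was 0.259 FPKM for lab and 0.0954 for pb, and Scr was listed at 0 in all 6 libraries. Without 3-target library 1 or 2 the count was 3. The Antp call was lost without 3-target library 1 (0.0657) or 2 (0.064), and the Ubx call without these (0.0823 and 0.0818) and without control library 2 (0.0505) or 3 (0.052). Against ph+E(z) RNAi, where 3.57% of all tested genes passed (1.97% higher and 1.6% lower), Antp was lower by 2.14 on the log2 scale (-2.14 ± 0.39, adjusted p = 0.0229), Abd-B differed by -1.97 ± 0.31 (adjusted p = 0.0121) and Ubx by -1.73 ± 0.38 (adjusted p = 0.049). abd-A differed by -1.47 without passing (adjusted p = 0.0684, and 0.0345 without control library 1 and 0.013 without ph+E(z) library 1), and Dfd differed by 0.56 (adjusted p = 0.451). The Antp difference was lost without ph+E(z) library 2 or 3 or any 3-target library, the Abd-B difference without ph+E(z) library 2 or 3 or 3-target library 1 or 2, and the Ubx difference without any library except control library 1 and ph+E(z) library 1. The highest adjusted p came without ph+E(z) library 2 in each, at 0.11 for Antp, 0.0662 for Abd-B and 0.208 for Ubx.

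**Figure D3:**
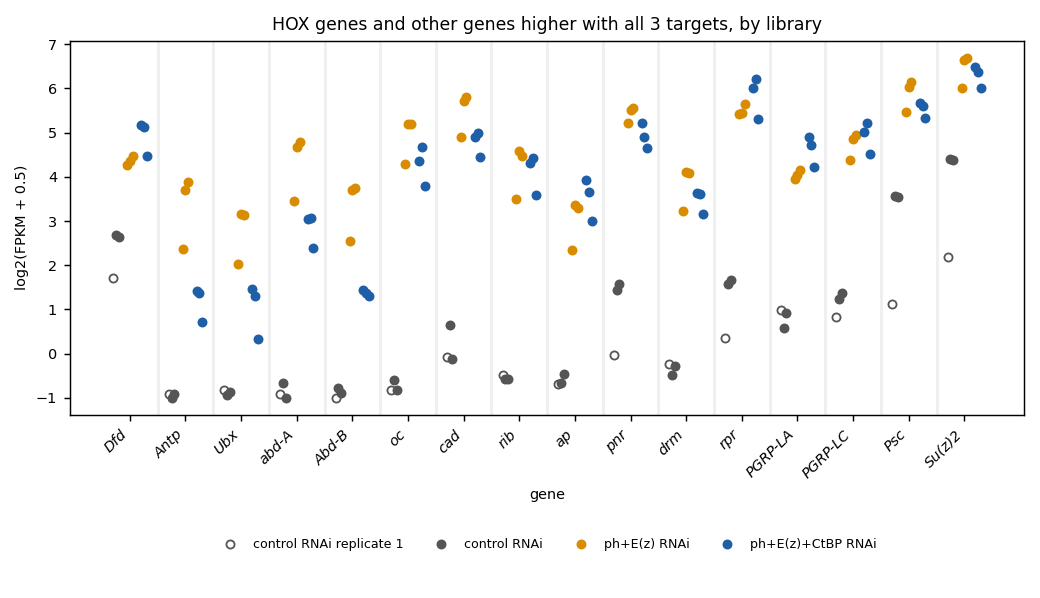
log2(FPKM + 0.5) (y axis) in each of the 9 libraries for the 5 tested HOX genes and 11 further genes that were higher in the 3-target group (x axis), with control library 1 as an open point. For Antp, Ubx, abd-A and Abd-B the 3-target libraries lie between the control and the ph+E(z) libraries, whereas for oc, cad, rib, rpr and the PGRP genes both knockdown groups lie far above the control libraries.

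Developmental transcription factors known as Polycomb targets in flies gave many of the largest rises. The head patterning gene oc (FBgn0004102, chromosome X, 8630159 to 8650681), which encodes Orthodenticle, lay at 0.0635, 0.158 and 0.0687 FPKM under control RNAi and at 20.0, 24.9 and 13.4 in the 3-target group. It rose by 5.02 ± 0.30 (adjusted p = 0.000124). The posterior determinant cad (FBgn0000251, 2L, 20770731 to 20783135) went from 0.446, 1.06 and 0.422 FPKM to 29.5, 31.1 and 21.3, a rise of 4.63 ± 0.30 (adjusted p = 0.000154). The tracheal gene rib went from 0.214, 0.171 and 0.173 FPKM to 19.3, 21.1 and 11.5, a rise of 4.65 ± 0.32. In all 3 genes the groups were far apart, and 3-target library 3 was again the lowest of its group. The wing selector gene ap rose by 4.13 ± 0.33, the GATA factor gene pnr by 3.94 ± 0.39, and drm, a zinc finger gene of the odd-skipped family, by 3.81 ± 0.27. Without control library 1 the pnr rise was 3.42. The adjusted p of rib, ap, pnr and drm ran from 0.000184 to 0.000968. All 6 genes of this group were called in each of the 9 fits that left out 1 library. That was a condition for being named among the largest changes, so it is no separate support. oc, rib, ap and drm were under 0.5 FPKM in every control library, passed the filter only through the 3-target group and could not have fallen. None of the 6 passed the test against ph+E(z) RNAi, where the differences ran from -0.69 (cad) to 0.53 (ap).

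Of the 96 factors on this list 32 were tested, and 17 were higher, 1 lower and 14 did not pass, with a median change of 1.32. That was 53.1% higher and 3.12% lower, beside 5.75% and 4.31% of all tested genes. Without control library 1 the counts were 18 and 1, and without 3-target library 1 or 2 they were 11 and 1. Control values under 0.5 FPKM in every library fixed the direction of 10 of the 32. The member that fell, named after its values were seen, was Sox15, which went from 8.14, 8.93 and 9.06 FPKM to 4.16, 4.58 and 3.68 (log2 change -0.99, adjusted p = 0.0075). Among the 17 are hth and tsh, which also stand on the list of CtBP and its partner repressors. hth, a cofactor of HOX proteins, went from 0.0418, 0.489 and 0.617 FPKM to 10.4, 9.36 and 4.38, a rise of 3.26 ± 0.39 (adjusted p = 0.00232). The trunk gene tsh rose by 1.86 ± 0.30 (adjusted p = 0.00767). That list had 3 of 19 members higher and 1 lower, CtBP itself, and 5 and 1 without control library 1. With all libraries that was 15.8% and 5.26%, beside the background of 5.75% and 4.31%. A zinc finger gene outside the lists, elB, which acts in tracheal development, rose by 3.35 ± 0.21 against control (adjusted p = 0.000143). elB was also 1.37 higher than with ph+E(z) RNAi on the log2 scale (adjusted p = 0.0107), which was lost without ph+E(z) library 2 (0.0549) or 3 (0.0504) or 3-target library 1 (0.059) or 2 (0.0602).

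Among 24 Polycomb group genes, 2 were higher, 2 lower and 20 did not pass (median -0.02). That was 8.33% each way, beside 5.75% higher and 4.31% lower among all tested genes, and the lower ones include the target E(z). Psc and Su(z)2, which encode related ring finger proteins of Polycomb complex 1, were the 2 that rose. Psc lay at 1.67, 11.3 and 11.2 FPKM under control RNAi and at 50.5, 48.3 and 39.9 in the 3-target group, a rise of 2.80 ± 0.59 (adjusted p = 0.0211). Su(z)2 lay at 4.02, 20.5 and 20.4 FPKM and then at 89.0, 82.8 and 63.4, a rise of 2.63 ± 0.55 (adjusted p = 0.0202). Control library 1 was the lowest library in both, and without it the rises were 1.99 (adjusted p = 0.000893) and 1.90 (adjusted p = 0.00158). Both calls were lost without 3-target library 1 (0.087 for Psc and 0.0867 for Su(z)2) or 2 (0.0829 and 0.0818). Beside E(z), the histone deacetylase gene Rpd3, whose product acts with many corepressors, fell by 0.48 ± 0.11 (adjusted p = 0.0254). This last call was lost without control library 2 (0.065) or 3 (0.0799), ph+E(z) library 2 (0.0563) or 3-target library 1 (0.113) or 2 (0.111). The lower members of this list numbered 4 without control library 1, and 1 without any of these 5 libraries. Of 28 trithorax group genes, which counter Polycomb silencing, 0 passed by limma and 8 had an unadjusted p under 0.05, as 2398 of all tested genes did. Without control library 1, 3 trithorax group genes were higher and 1 lower (3.57%), where 10.1% and 8.26% of all tested genes were. Psc (0.0716), Su(z)2 (0.0681) and Rpd3 (0.0953) did not pass in the 6-library fit, where 0 Polycomb group genes were higher and 1 lower.

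Genes of the basement membrane were among the largest falls. vkg (FBgn0016075, 2L, 5012144 to 5028191), which encodes the collagen IV alpha 2 chain, lay at 54.2, 67.4 and 63.4 FPKM under control RNAi and at 2.88, 3.21 and 7.16 in the 3-target group. It fell by 3.76 ± 0.37 (adjusted p = 0.000961). Its neighbour Cg25C (Col4a1, FBgn0000299, 2L, 5029609 to 5037279), the alpha 1 chain gene on the opposite strand, went from 81.4, 83.6 and 77.8 FPKM to 6.82, 6.95 and 12.2, and fell by 3.2 ± 0.26 (adjusted p = 0.000448). Pxn (FBgn0011828, 3L, 2601455 to 2630064), whose product Peroxidasin crosslinks collagen IV, went from 44.5, 40.6 and 39.5 FPKM to 3.31, 2.8 and 10.4, and fell by 3.03 ± 0.39 (adjusted p = 0.00304). BM-40-SPARC (SPARC, FBgn0026562, 3R, 26869238 to 26871995), a collagen-binding matrix protein gene, went from 575, 441 and 451 FPKM to 54.8, 54.0 and 108, and fell by 2.82 ± 0.26 (adjusted p = 0.000672). fat-spondin, which encodes a secreted protein of the spondin family, fell by 1.43 ± 0.16 (adjusted p = 0.00138). In all 5 genes the groups did not overlap, as in 36.8% of all tested genes, and the call held without any 1 library. Both properties were required of the largest changes, vkg, Cg25C, Pxn and BM-40-SPARC among them, so neither is separate support. In each of vkg, Cg25C, Pxn and BM-40-SPARC 3-target library 3 lay closest to the controls.

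These genes were also lower than with ph+E(z) RNAi alone, by 2.17 (vkg), 1.91 (Cg25C), 3.42 (Pxn), 3.06 (BM-40-SPARC) and 1.90 (fat-spondin) on the log2 scale. In order these differences were -2.17 ± 0.37, -1.91 ± 0.26, -3.42 ± 0.39, -3.06 ± 0.26 and -1.90 ± 0.16, with adjusted p = 0.0166, 0.00749, 0.00403, 0.00136 and 0.00132. The vkg difference was lost without ph+E(z) library 2 (0.0662) or 3-target library 1 (0.0805) or 2 (0.083). With ph+E(z) RNAi vkg lay at 32.4, 17.7 and 14.2 FPKM and Cg25C at 46.5, 27.6 and 27.3, below control, whereas Pxn lay at 60.3, 51.0 and 53.7. Of 20 tested matrix genes, 5 were lower, 2 higher and 13 did not pass (median -0.14). That was 25% lower and 10% higher, beside 4.31% and 5.75% of all tested genes. Without control library 1 the counts were 8 lower and 3 higher, and 0 were higher without 3-target library 1 or 2. The 2 that rose, named after their values were seen, were Mmp2, a matrix metalloprotease gene (1.66 ± 0.32, adjusted p = 0.0155), and the adhesion gene mfas (1.71 ± 0.30, adjusted p = 0.0104). Matrix genes in the 6-library fit numbered 5 lower and 1 higher.

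**Figure D4:**
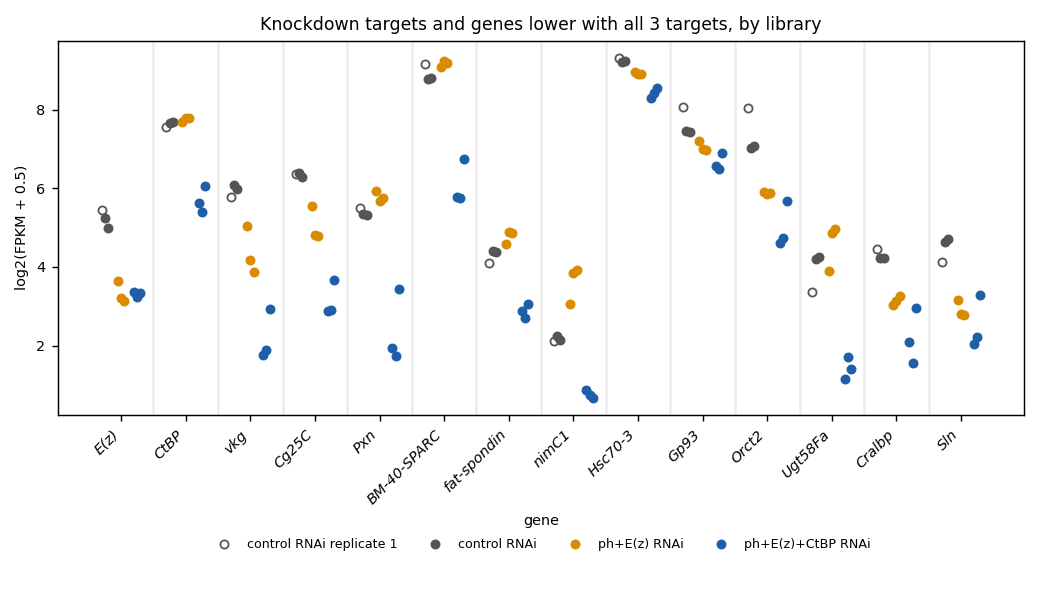
log2(FPKM + 0.5) (y axis) in each of the 9 libraries for E(z), CtBP and 12 genes that were lower in the 3-target group (x axis), with control library 1 as an open point. Pxn, BM-40-SPARC, fat-spondin, nimC1 and Ugt58Fa are low only in the 3-target libraries, whereas E(z), vkg, Cg25C, Orct2, Cralbp and Sln are below control in both knockdown groups.

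Chaperones and enzymes of the secretory pathway, in which collagen is folded, were lower where they passed. Of 26 tested, 7 were lower, 0 higher and 19 did not pass (median -0.34), and 12 were lower and 0 higher without control library 1. The share lower was 26.9%, beside 4.31% of all tested genes, and 46.2% beside 8.26% without control library 1. Hsc70-3, the endoplasmic reticulum chaperone BiP, lay at 642, 600.5 and 604 FPKM under control RNAi and at 317, 345 and 374 in the 3-target group. It fell by 0.84 ± 0.10 (adjusted p = 0.00225), a call that held without any 1 library. Gp93, the chaperone of the Hsp90 family in the same compartment, fell by 1.00 ± 0.19 (adjusted p = 0.0145), Crc (Calreticulin) by 0.71 ± 0.13 (adjusted p = 0.011) and the disulfide isomerase gene ERp60 by 0.70 ± 0.16 (adjusted p = 0.0261). Control library 1 was the highest library for each of these 4. Without it the changes were -0.80 (Hsc70-3 and Gp93), -0.59 (Crc) and -0.52 (ERp60). Without 3-target libraries 1 and 2 the calls of Gp93 (0.0696 and 0.0698), Crc (0.0581 and 0.0532) and ERp60 (0.1 and 0.102) were lost, the last also without ph+E(z) library 2 (0.0536) or 3 (0.0528) or 3-target library 3 (0.0512). The count of 7 was 4 without control library 3 or 3-target library 3, 3 without ph+E(z) library 2 or 3, and 1 without 3-target library 1 or 2. Gp93 (0.0563), Crc (0.0556) and ERp60 (0.0969) did not pass in the 6-library fit, where 1 of the 26 was lower.

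Markers of plasmatocytes, the macrophage-like hemocytes, did not move as one. Of 27 tested, 9 were lower, 2 higher and 16 did not pass (median -0.35), and 14 were lower and 5 higher without control library 1. With all libraries 33.3% were lower and 7.41% higher, beside 4.31% and 5.75% of all tested genes. Without control library 1, 51.9% were lower, beside 8.26% of all tested genes, and the 5 higher stand beside 10.1%. Among the 9 are vkg, Cg25C, Pxn and BM-40-SPARC, which also stand in the matrix list. Among the 2 higher is the engulfment receptor gene drpr (0.90 ± 0.21, adjusted p = 0.0305). It lay at 62, 62.3 and 59 FPKM under control RNAi and at 133, 138 and 82.3 in the 3-target group. The fits that lost its call are given below with the receptors. The summed level of the plasmatocyte list ran from 3888 to 4227 FPKM under control RNAi and from 4559 to 5844 in the 3-target group, and Nplp2 alone held 1754, 1043 and 1124 FPKM under control RNAi and 3490.1, 3992 and 2232 in the 3-target group. In RNA from whole cultures, fewer cells of a type and less RNA per cell cannot be told apart. nimC1, a phagocytosis receptor gene of the Nimrod family, lay at 3.82, 4.21 and 3.9 FPKM under control RNAi and at 1.33, 1.16 and 1.09 in the 3-target group. It fell by 1.41 ± 0.23 (adjusted p = 0.00862), and against ph+E(z) RNAi, with 7.85, 14 and 14.6 FPKM, it differed by -2.86 ± 0.23 (adjusted p = 0.00132). Both calls held without any 1 library. Hml, at 47.7, 39.9 and 76.2 FPKM in the 3-target group, differed by -0.24 ± 1.01 with all libraries (adjusted p = 0.889) and passed as lower without control library 1 (adjusted p = 0.00499). eater, at 1.39, 1.28 and 1.35 FPKM there, also passed as lower without that library and not with it (-0.84 ± 0.87, adjusted p = 0.529, and 0.00125). The higher plasmatocyte genes numbered 0 without control library 2, ph+E(z) library 2 or 3 or 3-target library 1 or 2, and 1 without control library 3, and the lower numbered 5 without 3-target library 1. Plasmatocyte markers in the 6-library fit numbered 0 higher and 5 lower.

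Markers of the other hemocyte types were higher where they passed with all libraries. Of 6 crystal cell markers, genes of the cells that make melanin, only 3 passed the filter and were tested. Among these 3, 2 were higher with and without control library 1 (66.7%). Of all tested genes 5.75% were higher with it and 10.1% without it. peb (hindsight), a zinc finger gene, went from 0.273, 0.206 and 0.33 FPKM to 8.92, 7.81 and 5.34, a rise of 3.33 ± 0.28 (adjusted p = 0.00048). lz, the Runx factor gene of this lineage, went from 0.276, 0.444 and 0.412 FPKM to 2.34, 1.54 and 1.86, a rise of 1.45 ± 0.23 (adjusted p = 0.00687). Both were under 0.5 FPKM in every control library and could not have fallen, so this count is no separate support. Both calls held without any 1 library. The third marker, the receptor gene N (Notch), differed by -0.88 ± 0.37 (adjusted p = 0.167) and passed as lower without control library 1 (adjusted p = 0.0151). Of 9 lamellocyte markers, genes of the hemocytes that encapsulate parasites, 3 were higher (33.3%, beside 5.75% of all tested genes). The count was 7 without control library 1, where 10.1% of all tested genes were higher. It was 6 without 3-target library 3 and 0 without 3-target library 1 or 2. The kinase gene msn lay at 74.9, 145 and 136 FPKM and then at 286, 278 and 244 (1.23 ± 0.23, adjusted p = 0.0133). The integrin genes alphaPS4 (1.93 ± 0.42, adjusted p = 0.0236) and betaInt-nu (1.22 ± 0.25, adjusted p = 0.0185) were the others. Without control library 1 the rises were 0.93 for msn, 1.53 for alphaPS4 and 1.05 for betaInt-nu. Without 3-target libraries 1 and 2 these 3 calls were lost, at 0.0644 and 0.0621 for msn, 0.0953 and 0.0968 for alphaPS4, and 0.0783 and 0.0839 for betaInt-nu. msn (0.0571) and betaInt-nu (0.0724) did not pass in the 6-library fit, where 1 lamellocyte marker was higher.

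Among markers of cell types other than hemocytes, those of glia and muscle held the calls. Of 7 tested neuron, 14 germline, 3 fat body and 2 gut markers, 0 passed by limma, and 0, 3, 1 and 0 had an unadjusted p under 0.05. Without control library 1, 2 germline markers were higher and 0 neuron, fat body or gut markers passed. One fit, without 3-target library 3, had 1 germline marker lower. Summed over each list, neuron markers ran from 8.47 to 34.9 FPKM in the control group, lowest in library 1, and from 30.6 to 37.2 in the 3-target group, and germline markers from 158 to 349 and from 447 to 639. Summed fat body markers ran from 139 to 156 and from 124 to 162 FPKM, and gut markers from 7.1 to 8.05 and from 5.7 to 8.1. Glia markers ran from 168 to 171 and from 212 to 289.7 FPKM, and muscle markers from 237 to 595 and from 691 to 761, with the widely expressed tropomyosin gene Tm1 alone at 650.2 to 718 in the 3-target group. Their part in the other results was not tested. The muscle myosin gene Mhc stayed at or under 0.342 FPKM, the germline gene vas at or under 0.413 and the glial determinant repo at or under 0.126 in these 6 libraries. Among 6 tested glia markers 2 were higher (33.3%, beside 5.75% of all tested genes), the glutamine synthetase gene Gs2 (1.11 ± 0.18, adjusted p = 0.00864) and the receptor gene moody (2.1 ± 0.47, adjusted p = 0.0265). Of 5 tested muscle markers 2 were higher (40%), Mlc2 (1.27 ± 0.20, adjusted p = 0.00741) and wupA (1.53 ± 0.35, adjusted p = 0.0306). Glia and muscle markers numbered 2 and 3 higher without control library 1. The moody change was 1.47 without control library 1. Its call was lost without ph+E(z) library 2 (0.0514) or 3 (0.0501) or 3-target library 1 (0.109) or 2 (0.105). wupA was lost without control library 2 (0.0796) or 3 (0.0734) or 3-target library 2 (0.119) or 3 (0.0768). moody did not pass in the 6-library fit (0.0938), which left 1 glia marker.

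Of 20 tested cell death genes 2 were higher and 2 lower (10% each way, beside 5.75% and 4.31% of all tested genes), with a median of 0.00. rpr (FBgn0011706, 3L, 18397535 to 18398435), an activator that binds inhibitors of apoptosis, lay at 0.775, 2.49 and 2.68 FPKM under control RNAi and at 64.1, 73.8 and 39.1 in the 3-target group. It rose by 4.65 ± 0.37 (adjusted p = 0.000362), or 4.22 without control library 1. W (hid), a second activator, went from 2.58, 2.11 and 2.87 FPKM to 21.1, 17.5 and 9.96, a rise of 2.41 ± 0.26 (adjusted p = 0.00138). The inhibitor gene th (Diap1) fell by 0.49 ± 0.11 (adjusted p = 0.0297), from 277, 218 and 223 FPKM to 162, 176 and 169, and the Bcl-2 family gene debcl fell by 0.82 ± 0.13 (adjusted p = 0.00799). In all 4 the groups did not overlap, as in 36.8% of all tested genes. rpr, W and debcl kept their calls without any 1 library, a condition of choice for rpr. The th call was lost without control library 3 (0.0565), ph+E(z) library 2 (0.0634) or 3 (0.0616), or 3-target library 1 (0.124), 2 (0.0891) or 3 (0.0604). The other 16 members did not pass, and 3 were higher and 3 lower without control library 1. The lower members numbered 1 without control library 3, ph+E(z) library 2 or 3 or 3-target library 1 or 2. None of the 4 genes differed from ph+E(z) RNAi past the threshold with all libraries, and W, at 0.93 (adjusted p = 0.115), did so without 3-target library 3 (0.0161), and debcl (0.239) and th (0.0569) without control library 1 (0.0085 and 0.00114). th did not pass in the 6-library fit (0.113), where 1 member was lower.

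Genes of the peptidoglycan recognition protein family were among the largest rises. PGRP-LA (FBgn0035975, 3L, 9334332 to 9338336), a peptidoglycan recognition protein gene, lay at 1.47, 0.994 and 1.4 FPKM under control RNAi and at 29.2, 26.0 and 18.2 in the 3-target group, a rise of 3.79 ± 0.20 (adjusted p = 8.52e-05). Its neighbour PGRP-LC (FBgn0035976, 3L, 9338810 to 9348336), the main receptor of the Imd pathway, went from 1.27, 1.86 and 2.1 FPKM to 31.7, 36.8 and 22.5, a rise of 3.77 ± 0.24 (adjusted p = 0.000148). The serine protease gene grass, which acts upstream of Toll, fell by 1.47 ± 0.16 (adjusted p = 0.00138), and the lysozyme gene LysX by 1.05 ± 0.12 (adjusted p = 0.00163). These 4 calls held without any 1 library, a condition of choice for PGRP-LA and PGRP-LC. Of 42 tested genes on the list 5 were higher, 6 lower and 31 did not pass (median 0.27), and 9 were higher and 7 lower without control library 1. With all libraries 11.9% were higher and 14.3% lower, beside 5.75% and 4.31% of all tested genes. The higher count was 3 without control library 3 or 3-target library 1 or 2. Scavenger and engulfment receptors had 4 of 18 higher and 2 lower, PGRP-LC and nimC1 included, and 6 and 4 without control library 1. With all libraries that was 22.2% and 11.1%, beside the same 5.75% and 4.31%. The CD36 family gene pes (0.62 ± 0.11, adjusted p = 0.00936) and the engulfment receptor gene drpr (0.90 ± 0.21, adjusted p = 0.0305) rose. pes was lost without 3-target library 1 (0.0539). drpr was lost without control library 2 (0.0673) or 3 (0.0798), ph+E(z) library 2 (0.0552) or 3 (0.0511) or 3-target library 1 (0.127) or 2 (0.119). The higher receptors numbered 2 without control library 2, ph+E(z) library 2 or 3 or 3-target library 2, and 1 without 3-target library 1. The lower receptors numbered 1 without control library 3 or any of the 6 knockdown libraries. pes (0.051) and drpr (0.0754) did not pass in the 6-library fit, where 1 receptor was higher and 1 lower.

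Adhesion genes rose in part. Of 22 tested, 6 were higher, 1 lower and 15 did not pass (median 0.19), and 7 and 2 without control library 1. With all libraries 27.3% were higher and 4.55% lower, beside 5.75% and 4.31% of all tested genes. Among the 6 are alphaPS4 and betaInt-nu, which also stand on the lamellocyte list. Their calls were lost without 3-target library 1 or 2. Fas3, a homophilic adhesion gene, lay at 0.335, 0.309 and 0.404 FPKM under control RNAi and at 13.2, 12 and 4.43 in the 3-target group, a rise of 3.48 ± 0.35 (adjusted p = 0.00103). Being under 0.5 FPKM in control, it could not have fallen. Nrg, the fly L1 family gene, went from 1.64, 3.04 and 2.68 FPKM to 15.8, 13.4 and 16.0, a rise of 2.43 ± 0.21 (adjusted p = 0.000536). The integrin alpha gene scb rose by 1.49 ± 0.17 (adjusted p = 0.00197) and Zasp52, which links integrins to actin, by 2.16 ± 0.35 (adjusted p = 0.00785). Without control library 1 the Zasp52 rise was 1.78. All 4 calls held without any 1 library. Nrg was also above its ph+E(z) level by 1.63 ± 0.21 (adjusted p = 0.00683) and scb by 1.67 ± 0.17 (adjusted p = 0.00311). The 1 lower member, named after its values were seen, was the integrin alpha gene mew (-0.71 ± 0.17, adjusted p = 0.0309), and 0 members were lower without any library except control library 1. The higher count was 4 without 3-target library 1 or 2. Of 15 axon guidance genes 2 were higher (13.3%, beside 5.75% of all tested genes), and 2 without control library 1. lea (robo2), a Slit receptor gene that was also under 0.5 FPKM in every control library and could not have fallen, went from 0.134, 0.447 and 0.308 FPKM to 3.71, 3.62 and 2.51 (2.25 ± 0.22, adjusted p = 0.000961), and was 2.01 ± 0.22 above ph+E(z) RNAi (adjusted p = 0.00397). Sema-1b, which encodes a membrane semaphorin, rose by 1.67 ± 0.39 (adjusted p = 0.0316), or 1.15 without control library 1. Its call was lost without ph+E(z) library 1 (0.0506), 2 (0.0585) or 3 (0.0572) or 3-target library 1 (0.126) or 2 (0.116). Of the axon guidance genes 1 was lower without control library 1 and 2 without 3-target library 3. Sema-1b did not pass in the 6-library fit (0.101), where 1 axon guidance gene was higher and 0 adhesion genes were lower.

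Genes of the cytoskeleton had 4 of 27 higher and 1 lower (14.8% and 3.7%, beside 5.75% and 4.31% of all tested genes). The counts were 8 and 2 without control library 1. Act42A, a cytoplasmic actin gene, lay at 519, 669 and 664 FPKM and then at 1653, 1554 and 1046 (1.18 ± 0.19, adjusted p = 0.00739). The actin nucleation gene WASp rose by 0.77 ± 0.11 (adjusted p = 0.00448), the actin bundling gene Fim by 0.91 ± 0.16 (adjusted p = 0.00945) and betaTub60D by 0.78 ± 0.14 (adjusted p = 0.0109). Fim was lost without 3-target library 1 (0.0531) and betaTub60D without 3-target library 1 (0.0581) or 2 (0.0574). The 1 that fell, named after its values were seen, was Actn, the alpha-actinin gene (-0.76 ± 0.17, adjusted p = 0.0273). The higher genes numbered 2 without 3-target library 1, and the lower 0 without control library 2 or 3, ph+E(z) library 2 or 3-target library 1 or 2 and 2 without 3-target library 3. Of the 5 tested imaginal disc growth factor genes, which encode secreted chitinase-like proteins, 3 were higher (60%), and 4 without control library 1. Idgf2 went from 11.1, 14.9 and 11.7 FPKM to 157, 130 and 51.2, a rise of 2.98 ± 0.39 (adjusted p = 0.00334). Idgf1 rose by 1.92 ± 0.38 (adjusted p = 0.0161) and Idgf4 by 1.36 ± 0.24 (adjusted p = 0.0107), or 1.48 for Idgf1 without control library 1. Idgf4 lay at 0.0747, 0.16 and 0.405 FPKM under control RNAi and at 1.66, 1.32 and 0.964 in the 3-target group, so it passed the filter only through that group and could not have fallen. Idgf3 differed by 0.81 ± 0.25 (adjusted p = 0.081, with 0.0187 without control library 1 and 0.028 without 3-target library 3) and Chit (Idgf6) by 0.23 ± 0.19 (adjusted p = 0.438). Without 3-target library 1 Idgf4 (0.0539) and Idgf1 (0.0757) were lost and 1 gene remained, and Idgf1 was also lost without 3-target library 2 (0.0755). Idgf1 did not pass in the 6-library fit (0.0579), where 2 growth factor genes were higher and 0 cytoskeleton genes lower.

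Genes of detoxification were among the largest rises over both other groups. GstD2 (FBgn0010038, 3R, 12371971 to 12372704), a glutathione S-transferase gene, lay at 8.14, 5.06 and 5.32 FPKM under control RNAi, at 4.04, 1.44 and 4.31 with ph+E(z) RNAi and at 54.4, 47.0 and 38.4 in the 3-target group. It rose by 2.83 ± 0.36 over control (adjusted p = 0.00273) and by 3.74 ± 0.36 over ph+E(z) RNAi (adjusted p = 0.00217), and both calls held without any 1 library. In the opposite direction the UDP-glycosyltransferase gene Ugt58Fa (Ugt317A1) went from 9.85, 17.9 and 18.6 FPKM to 1.73, 2.74 and 2.13. It fell by 2.53 ± 0.34 (adjusted p = 0.00363) and differed from ph+E(z) RNAi by -3.17 ± 0.34 (adjusted p = 0.00366), again without dependence on any 1 library. CG30438 (Ugt50B3) and CG17322 (Ugt36E1), of the same enzyme family, rose by 1.14 ± 0.18 and 1.31 ± 0.23 (adjusted p = 0.00663 and 0.0107). CG17322 was lost without 3-target library 1 (0.0553) or 2 (0.054). Of the 49 tested genes of these 2 families 8 were higher, 3 lower and 38 did not pass, and 13 and 4 without control library 1. With all libraries 16.3% were higher and 6.12% lower, beside 5.75% and 4.31% of all tested genes. The higher count was 5 without control library 2 or 3-target library 3, 3 without control library 3 or 3-target library 2, 4 without ph+E(z) library 2 or 3 and 2 without 3-target library 1, and the lower was 1 without 3-target library 1 or 2. In the 6-library fit 4 were higher and 2 lower.

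Of 50 tested cytochrome P450 genes 6 were higher and 1 lower (12% and 2%, beside 5.75% and 4.31% of all tested genes). The counts were 7 and 3 without control library 1. The 1 lower with all libraries, named after its values were seen, was Cyp28d1 (-1.02 ± 0.25, adjusted p = 0.0359). Cyp6a21 rose by 2.40 ± 0.24 (adjusted p = 0.000961) and Cyp6a8 by 1.80 ± 0.18 (adjusted p = 0.001), both in every fit without 1 library. Cyp6a8 lay at 63.1, 55.1 and 47.9 FPKM and then at 215, 225 and 148. Cyp6a9 rose by 1.96 ± 0.36 (adjusted p = 0.0134) and Cyp4p3 by 2.53 ± 0.49 (adjusted p = 0.0155), or 1.90 for Cyp4p3 without control library 1. Over ph+E(z) RNAi Cyp4p3 was higher by 2.54 (adjusted p = 0.0279), which was lost without ph+E(z) library 2 (0.127) or 3 (0.128) or 3-target library 1 (0.12), 2 (0.122) or 3 (0.0511). Without 3-target libraries 1 and 2 Cyp6a9 (0.062 and 0.0621) and Cyp4p3 (0.0697 and 0.0728) were lost and 2 genes of the family were higher. The lower P450 count was 0 without control library 2 or 3, each ph+E(z) library and 3-target library 1 or 2, and 2 without 3-target library 3. Cyp6a9 (0.0541) and Cyp4p3 (0.0523) did not pass in the 6-library fit, where 2 genes of the family were higher and 0 lower.

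Lipid genes had 2 of 20 higher and 3 lower, with the same counts without control library 1. With all libraries that was 10% and 15%, beside 5.75% and 4.31% of all tested genes. Npc2b (FBgn0038198, 3R, 14089517 to 14092425), which encodes a sterol-binding protein of the Niemann-Pick type C2 family, lay at 2.41, 1.8 and 2.08 FPKM under control RNAi, at 8.29, 5.74 and 8.36 with ph+E(z) RNAi and at 49.5, 47.3 and 17.5 in the 3-target group. It rose by 3.76 ± 0.37 over control (adjusted p = 0.000961), a call that held without any 1 library. Over ph+E(z) RNAi it was higher by 2.16 ± 0.37 (adjusted p = 0.0177), which was lost without ph+E(z) library 2 (0.0902) or 3 (0.0684) or 3-target library 1 (0.0828) or 2 (0.0864). The acyltransferase gene fu12 (Agpat2) fell by 1.41 ± 0.21 (adjusted p = 0.00533), the acetyl-CoA synthetase gene AcCoAS by 0.61 ± 0.13 (adjusted p = 0.0229), and the lipase gene Lip4 rose by 1.30 ± 0.29 (adjusted p = 0.0254). AcCoAS was lost without control library 3 (0.0551) or 3-target library 1 (0.102) or 2 (0.1), and Lip4 without control library 2 (0.0614) or 3 (0.0588) or 3-target library 1 (0.108) or 2 (0.102). The list then had 1 higher gene without any of the last 4 libraries and 1 lower without control library 3 or 3-target library 1 or 2. Outside the lists, Orct2, a gene of the organic cation transporter family, fell by 2.37 ± 0.33 (adjusted p = 0.00426). Cralbp, of a family of lipid-binding proteins, fell by 2.11 ± 0.31 (adjusted p = 0.00523). Sln, a monocarboxylate transporter gene, fell by 1.97 ± 0.33 (adjusted p = 0.00885), and the serine protease gene Sp7, which acts in melanisation, rose by 2.84 ± 0.31 (adjusted p = 0.00138). All 4 calls held without any 1 library, a condition of choice for Orct2, Cralbp and Sln. Sp7 was also 1.75 above ph+E(z) RNAi (adjusted p = 0.0199), which was lost without ph+E(z) library 1 (0.0647), 2 (0.0721) or 3 (0.0849) or 3-target library 1 (0.0974) or 2 (0.093). AcCoAS (0.0904) and Lip4 (0.0678) did not pass in the 6-library fit, where 1 lipid gene was higher and 1 lower.

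Among signalling lists the called share ran from 4.76% (Dpp and Activin) to 25% (JAK-STAT), beside 10.1% of all tested genes. In the JAK-STAT pathway the receptor gene dome rose by 0.39 ± 0.10 (adjusted p = 0.0488) and the feedback inhibitor gene Socs36E by 0.91 ± 0.23 (adjusted p = 0.041). CG14225 (et), which encodes a negative regulator related to dome, fell by 1.08 ± 0.17 (adjusted p = 0.00664). Socs36E lay at 83.1, 54.3 and 52.7 FPKM, at 51.1, 33.2 and 31.1 with ph+E(z) RNAi and at 125, 117 and 110.1 in the 3-target group. Against ph+E(z) RNAi the 3 genes differed by 0.73 ± 0.10, 1.63 ± 0.23 and -1.40 ± 0.17 (adjusted p = 0.0082, 0.00812 and 0.00476). The fall of CG14225 held in every fit, against both groups. The dome call over control was lost without any library except control library 1, at up to 0.177 (without 3-target library 1). The Socs36E call was lost without any library except control library 1 and ph+E(z) library 1, at up to 0.147 (without 3-target library 1). Over ph+E(z) RNAi, Socs36E was lost without ph+E(z) library 2 (0.0503), and dome without ph+E(z) library 2 (0.0578) or 3 (0.0563) or 3-target library 1 (0.0514). Of 12 tested members, 2 were thus higher and 1 lower, and 3 and 1 without control library 1. The higher count was 1 without ph+E(z) library 1 and 0 without any of the other 7 libraries. Socs36E (0.0597) and dome (0.142) did not pass in the 6-library fit, where 0 were higher and 1 lower.

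In the Notch pathway, malpha (E(spl)malpha-BFM), a Notch target of the Enhancer of split complex, went from 2.35, 2.01 and 2.55 FPKM to 7.83, 8.3 and 6.62. It rose by 1.53 ± 0.23 (adjusted p = 0.00525) and lay 1.90 ± 0.23 above ph+E(z) RNAi (adjusted p = 0.00466), in every fit without 1 library. The ubiquitin ligase gene neur rose by 0.65 ± 0.14 (adjusted p = 0.0242) and the ligand gene Ser fell by 1.41 ± 0.33 (adjusted p = 0.0324). neur was lost without control library 3 (0.0607), ph+E(z) library 2 (0.0526) or 3-target library 1 (0.11) or 2 (0.0848). Ser was lost without control library 2 (0.0871) or 3 (0.0906), ph+E(z) library 2 (0.0605) or 3 (0.0524) or 3-target library 1 (0.127) or 2 (0.123). The pathway had 2 of 21 higher and 1 lower (9.52% and 4.76%, beside 5.75% and 4.31% of all tested genes). Its counts were 3 and 2 without control library 1. Of 21 Dpp and Activin genes 1 was higher, the Activin-like ligand gene daw (1.16 ± 0.24, adjusted p = 0.0196), and 2 were higher and 1 lower without control library 1. daw lay 1.90 ± 0.24 above ph+E(z) RNAi (adjusted p = 0.00575). Its call over control was lost without control library 2 (0.0613) or 3 (0.0585) or 3-target library 1 (0.0854) or 2 (0.0666). neur (0.0657) and Ser (0.083) did not pass in the 6-library fit, where 1 Notch pathway gene was higher and 0 lower.

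Of 19 Wnt pathway genes 1 was higher and 2 lower (5.26% and 10.5%, beside 5.75% and 4.31% of all tested genes). The counts were 2 and 6 without control library 1 (31.6% lower), where 10.1% of all tested genes were higher and 8.26% lower. Apc, of the complex that degrades beta-catenin, lay at 14.8, 30.1 and 28.5 FPKM and then at 85.0, 75.2 and 77.1, a rise of 1.74 ± 0.24 (adjusted p = 0.004) that held without any 1 library. Without control library 1 the Apc rise was 1.42. The receptor genes fz2 and dnt fell by 0.70 ± 0.18 and 0.72 ± 0.17 (adjusted p = 0.0412 and 0.0315). Their calls were lost without control library 2 (0.0988 and 0.0759) or 3 (0.107 and 0.0683), ph+E(z) library 2 (0.0786 and 0.0534) or 3 (0.0712 and 0.0624) or 3-target library 1 (0.124 and 0.112) or 2 (0.146 and 0.0848), and that of fz2 also without ph+E(z) library 1 (0.0609). Of 16 JNK pathway genes 3 were higher (18.8%, beside 5.75% of all tested genes), msn with kay (Fos) and raw. Without control library 1 the count was 7, where 10.1% of all tested genes were higher. raw, a negative regulator, rose by 0.90 ± 0.17 (adjusted p = 0.0153) and kay by 0.42 ± 0.11 (adjusted p = 0.0443). Without 3-target library 1 or 2, where 0 JNK genes passed, raw stood at 0.0684 and 0.0666, and kay was lost without any library except control library 1, at up to 0.14. dnt (0.0967), fz2 (0.123), raw (0.065), kay (0.141) and msn (0.0571) did not pass in the 6-library fit, where 0 Wnt pathway genes were lower and 0 JNK pathway genes higher.

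In the insulin and TOR list 3 of 23 were higher (13%, beside 5.75% of all tested genes) and 0 lower, and 4 and 0 without control library 1. Thor (4E-BP), which restrains translation when TOR is inactive, lay at 130.5, 117 and 148 FPKM under control RNAi, at 136, 143 and 142 with ph+E(z) RNAi and at 312, 304 and 265 in the 3-target group. It rose by 1.16 ± 0.12 over control (adjusted p = 0.00102) and by 1.06 ± 0.12 over ph+E(z) RNAi (adjusted p = 0.00397), in every fit without 1 library. The insulin-like peptide gene Ilp6 rose by 1.06 ± 0.21 (adjusted p = 0.0153, and 0.0503 without control library 3) and foxo, the transcription factor that insulin signalling restrains, by 0.88 ± 0.21 (adjusted p = 0.0316). foxo was lost without control library 2 (0.0549) or 3 (0.0621), ph+E(z) library 2 (0.0596) or 3 (0.06) or 3-target library 1 (0.132) or 2 (0.126), and the list had 1 higher gene without control library 3. Of 19 ecdysone response genes 2 were higher and 2 lower (10.5% each way, beside 5.75% and 4.31% of all tested genes). The counts were 4 and 4 without control library 1. The 2 lower with all libraries, named for their response to the hormone in fly cells, encode metabolic enzymes. Eip55E (Cth), a cystathionine gamma-lyase gene, fell by 1.18 ± 0.16 (adjusted p = 0.004) and Eip71CD (MsrA), a methionine sulfoxide reductase gene, by 1.11 ± 0.17 (adjusted p = 0.00565), both in every fit without 1 library. The nuclear receptor gene Eip75B (0.69 ± 0.16, adjusted p = 0.0293) and the transcription factor gene Eip93F (1.72 ± 0.44, adjusted p = 0.0442) rose. Their rises were 0.55 and 1.18 without control library 1. Eip75B reached up to 0.103 (without 3-target library 1) and Eip93F up to 0.122 (the same library), and 0 members were higher without ph+E(z) library 2 or 3 or any 3-target library, and 1 without control library 3 or ph+E(z) library 1. foxo (0.103), Eip75B (0.0868) and Eip93F (0.118) did not pass in the 6-library fit, where 2 insulin and TOR genes and 0 ecdysone response genes were higher.

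Of 55 DNA replication and cell cycle genes 6 were lower, 0 higher and 49 did not pass (median -0.27). The share lower was 10.9%, beside 4.31% of all tested genes, and 25.5% (14 genes) beside 8.26% without control library 1. The mitotic cyclin gene CycB lay at 100, 80.7 and 80.8 FPKM and then at 43.1, 37.9 and 57.6 (-0.92 ± 0.16, adjusted p = 0.0107). The mitotic genes tum (-0.76 ± 0.18, adjusted p = 0.0311), ncd (-0.69 ± 0.16, adjusted p = 0.0324) and polo (-0.48 ± 0.11, adjusted p = 0.0346) also fell. The 6 became 2 without control library 2 or ph+E(z) library 1, 3 without control library 3, 1 without ph+E(z) library 2 or 3 or 3-target library 2, and 0 without 3-target library 1, where CycB stood at 0.0555, tum at 0.128, ncd at 0.122 and polo at 0.142. Of 27 glycolysis and neighbouring genes 1 was higher and 2 lower (3.7% and 7.41%, beside 5.75% and 4.31% of all tested genes). The counts were 2 and 2 without control library 1. Pdk, the kinase that turns pyruvate dehydrogenase off, rose by 1.56 ± 0.29 (adjusted p = 0.0144), and l(1)G0334 (Pdha), a subunit of that enzyme, fell by 0.62 ± 0.10 (adjusted p = 0.00663) in every fit without 1 library. The Pdk rise was 1.20 without control library 1. The gluconeogenesis gene fbp fell by 1.18 ± 0.23 (adjusted p = 0.0149). Pdk (0.0684 and 0.0666) and fbp (0.0583 and 0.071) were lost without 3-target libraries 1 and 2, where 0 members were higher and 1 lower, and 5 were lower without 3-target library 3. Of 31 heat shock and stress genes 1 was higher, Thor, and 1 lower, the metallothionein gene MtnA (-0.93 ± 0.19, adjusted p = 0.0182). That was 3.23% each way, beside 5.75% and 4.31% of all tested genes. The counts were 2 and 8 without control library 1 (25.8% lower), where 10.1% of all tested genes were higher and 8.26% lower. MtnA was lost without control library 3 (0.0545) or 3-target library 1 (0.0793) or 2 (0.0538), and 2 members were lower without ph+E(z) library 1 and 5 without 3-target library 3, where 2 were higher. CycB (0.0523), tum (0.108), ncd (0.0938), polo (0.118) and fbp (0.0571) did not pass in the 6-library fit, where 0 replication and cell cycle genes, 1 glycolysis gene and 2 stress genes were lower.

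Of 85 cytosolic ribosomal protein genes 0 were higher and 1 lower (median -0.42), and 0 and 8 without control library 1 (median -0.18). The share lower was 1.18%, beside 4.31% of all tested genes, and 9.41% beside 8.26% without that library. The 1 lower gene with all libraries was RpS19b, a copy known for expression in the germline. It lay at 42.5, 19.5 and 22.5 FPKM and then at 3.85, 5.11 and 12.2 (-2 ± 0.45, adjusted p = 0.0274). That call was lost without control library 3 (0.0567), ph+E(z) library 2 (0.0512) or 3-target library 1 (0.109) or 2 (0.109), and 2 genes of the list were lower without ph+E(z) library 1 or 3-target library 3. Of 72 mitochondrial ribosomal protein genes 0 passed by limma and 14 had an unadjusted p under 0.05, and 2 were lower without control library 1 and 1 without control library 2 or 3. Of 35 proteasome genes 2 were lower with and without that library (5.71%, beside 4.31% of all tested genes with it). They were Rpt3R (-0.76 ± 0.14, adjusted p = 0.013) and Prosbeta2R2 (-1.17 ± 0.24, adjusted p = 0.021), both copies known for expression in the testis. Rpt3R was lost without 3-target library 1 (0.0673) and Prosbeta2R2 without 3-target library 1 (0.0897) or 2 (0.0829). Of 22 RNA interference genes 0 passed by limma and 4 had an unadjusted p under 0.05, with 2 higher and 2 lower without control library 1 and 1 lower without 3-target library 3. Of 10 reference genes 0 passed by limma with or without that control library, and 1 had an unadjusted p under 0.05. RpS19b (0.0741) and Rpt3R (0.0579) did not pass in the 6-library fit, where 0 ribosomal protein genes and 1 proteasome gene were lower.

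**Figure D5:**
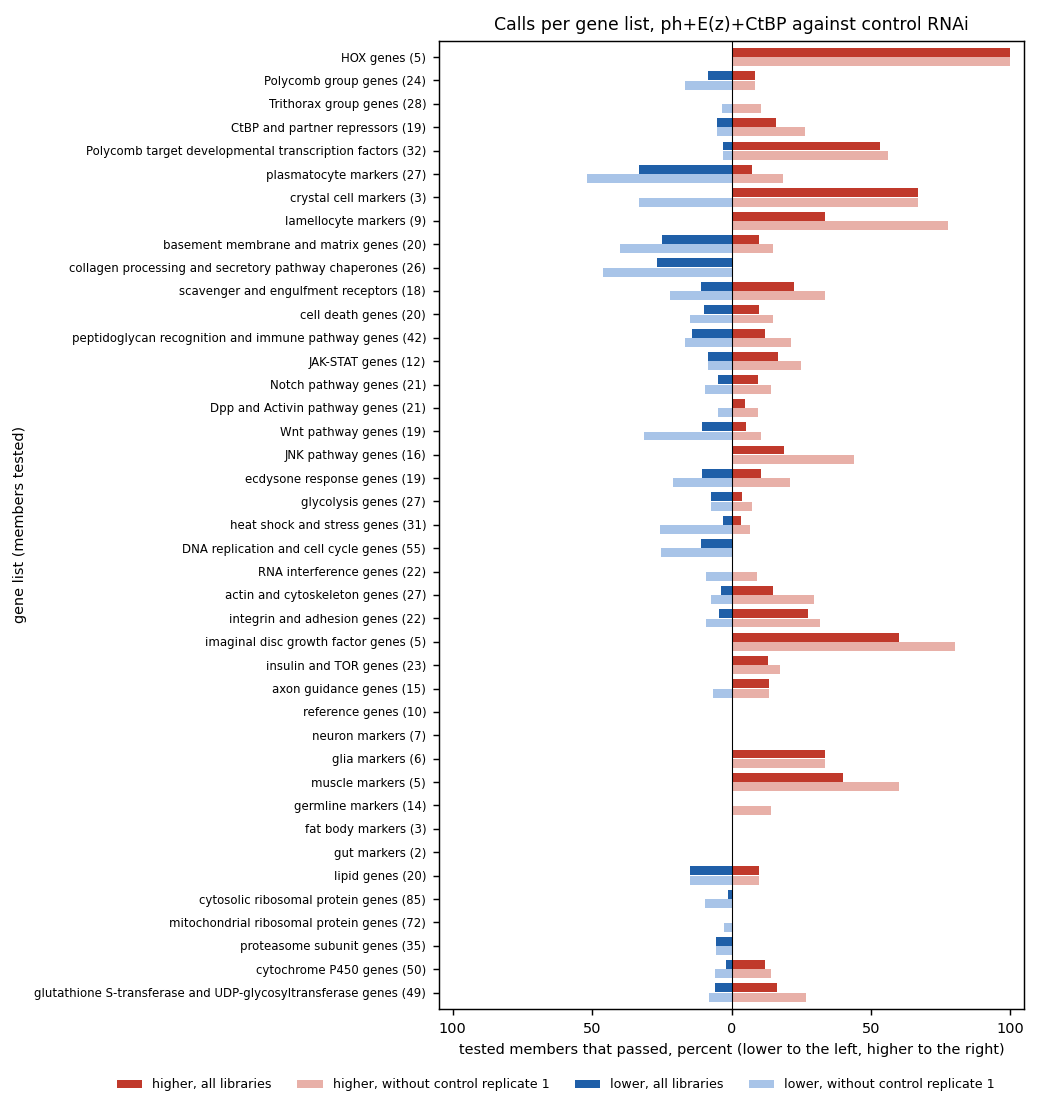
Share of the tested members of each gene list that were higher (to the right, red) or lower (to the left, blue) in the 3-target group, in percent, with the number tested in brackets and paler bars for the fit without control RNAi library 1. HOX genes lie wholly to the right, plasmatocyte, matrix and chaperone lists reach furthest to the left, and the background is 5.75% higher and 4.31% lower.

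Small structural RNA genes were among the most extreme values. The tRNA gene tRNA:CR32303 (tRNA:Cys-GCA-3-1) lay at 284, 303 and 920.4 FPKM under control RNAi and was listed at 0 in all 3 libraries of the 3-target group. The small nucleolar RNA gene snoRNA:Psi28S-3385a was listed at 0 in all 3 control libraries and lay at 11.4, 12.1 and 24 FPKM in the 3-target group. A second one, snoRNA:Psi28S-3316a, lay at 33.7, 18.1 and 18.3 FPKM in control and was listed at 0 in all 6 knockdown libraries. All 3 passed the test in every fit without 1 library, which their choice required, and no fold is given against a group at 0. Of the 134 named genes tested against ph+E(z) RNAi, 33 passed, beside 3.57% of all tested genes. However, 12 of them met a naming rule that required passing that test, many of these also meeting other rules, so the count supports nothing. All 37 mitochondrial genes were also listed at 0 in every library, so a 0 in this table need not mean that a gene was silent.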

How the data were processed

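RNA from 9 libraries of Kc167 cells, 3 per group, was sequenced. The authors deposited FPKM per gene and library. TopHat2 2.1.0, Bowtie2 2.2.6, Cufflinks, Cuffdiff and the build dm6 are named per the submitters' processing notes. The sources used here state neither the scaling between libraries nor strandedness, so overlapping genes cannot be told apart. Coordinates are those of a dm6 annotation, matched by FlyBase identifier for 13462 of 14797 genes. Symbols are the deposited ones, with newer names in brackets.

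Genes with at least 0.5 FPKM in 3 or more of the 6 libraries compared were tested on the scale log2(FPKM + 0.5). The test was limma 3.58.1 (R 4.3.3) with a mean-variance trend and 1 fit of all 3 groups. Every adjusted p is from limma, by Benjamini-Hochberg over the 8622 genes, with a threshold of 0.05. The pseudocount makes changes of low genes smaller than their ratios. Log2 changes are estimate ± SE. The difference from ph+E(z) RNAi comes from the same fit and shares the 3-target libraries with the main comparison. Whether libraries of a group came from separate cultures is not stated, so p measures the spread between these libraries only.

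Named genes are the targets, the 8 HOX genes, the 12 largest changes each way that held in all 9 fits without 1 library and did not overlap, up to 4 called members per list by adjusted p, all tested members of lists of 8 or fewer (given by counts where they did not pass), and up to 6 each way that also passed against ph+E(z) RNAi in the same direction. For the largest changes, the lack of overlap and the calls in all 9 fits were conditions of the choice, so neither is separate support. The ranked choices skipped genes with only a CG or CR number, 432 of the 868 called. The members and the 41 lists were chosen with earlier results of these data known.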

Additional observations from a re-analysis of the deposited data

How the results depend on the processing

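The counts of 496 higher and 372 lower genes, and of 33 named genes that differed from ph+E(z) RNAi, stayed within 1.5 times under pseudocounts of 0.1 and 1, the other filters, quantile and median-ratio scaling, no trend, robust moderation and the replicate block. Array weights, which gave control replicate 1 a weight of 0.0423, gave 1628, 1662 and 97. The fit of only the 6 libraries compared gave 251 higher and 156 lower genes, and 706 and 529 without control replicate 1. With the filter counted over the 5 libraries left without control replicate 1, an alternative chosen after seeing the data, the counts were 875, 702 and 61. Leaving out 1 library at a time gave 187 to 870 higher genes, 126 to 712 lower genes and 17 to 61 that differed from ph+E(z) RNAi. The cause of these shifts was not tested. Whether the replicate numbers pair the samples could not be settled. Deviations of same-numbered libraries correlated at -0.0594, -0.162 and 0.0391 (control and 3-target), 0.248, 0.0755 and 0.186 (control and ph+E(z)) and -0.0411, 0.0408 and 0.034 (ph+E(z) and 3-target). For differently numbered libraries the values ran, in the same order, from -0.0675 to 0.14, from -0.212 to 0.144 and from -0.0859 to 0.0632. The fit with the replicate block called 370 higher and 257 lower genes, and 16 of the 110 called named genes did not pass in it. It called 4 chaperone genes lower in place of 7, and 2 replication and cell cycle genes in place of 6. Without read numbers, counting error could not be modelled.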
